A study of Mus musculus with 5 samples.

Results

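Nodal, its antagonists Lefty1, Lefty2 and Cer1, its co-receptor gene Tdgf1 and its transcriptional partner Foxh1 were examined on Illumina expression arrays of the F9 line, mouse embryonal carcinoma cells that retinoic acid drives towards extra-embryonic endoderm. The members were every probe that the platform annotation assigns to these 6 genes, 8 of the 24613 probes. The 15967 genes with an annotated probe hold all 6. The samples were 3 arrays of F9 cells with a double knockdown of Sox7 and Sox17, transcription factors of endoderm and endothelium, labelled Sox7/Sox17 KD, and 2 arrays of control F9 cells. The comparison asks which transcripts depend on this factor pair. All 5 samples carry the same retinoic acid treatment label, so no array shows untreated cells. The dose, the duration, the means of the knockdown and what the control cells received in its place are not stated in the labels. Nothing in the labels says that the replicates came from separate cultures, so p-values here reflect array-to-array spread that may be technical only.

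Nodal is a secreted ligand of the TGF-beta family. It signals through activin type I and type II receptors, needs an EGF-CFC co-receptor such as Cripto, the product of Tdgf1, and acts through Smad2 and Smad3, which Foxh1 brings to many target genes. Nodal signalling induces Nodal itself and both Lefty genes, whose products block Nodal, so the pathway holds a positive and a negative feedback loop. In the mouse embryo Nodal and Tdgf1 are made by the epiblast, while Lefty1 and Cer1, another secreted Nodal antagonist, mark the anterior visceral endoderm.

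Nodal, Lefty1, Lefty2 and Tdgf1, were higher in Sox7/Sox17 KD cells than in control cells, and Foxh1 and Cer1 gave no call. Lefty2 had the largest difference, 2.00 on the log2(intensity + 16) scale, followed by Lefty1 and Tdgf1 at about 1.1 each and by Nodal at 0.59 and 0.81 on its 2 probes. Of the 8 member probes, 6 were tested and 5 of these rose, while 8.38% of all tested probes rose. A probe was tested when it exceeded the noise threshold, 20.1 to 20.2 intensity units, on at least 2 of the 5 arrays. A call needed a limma adjusted p below 0.05 over all 13624 tested probes. The groups did not overlap, with KD above control, for 5 of the 6 tested member probes, against 26.7% of all tested genes. That share counts 1 probe per gene, while the member count includes both Nodal probes.

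The arrays were brought to 1 common distribution before deposit, so overall differences in RNA amount are not visible. Both targeted genes were lower in the KD arrays, with Sox17 at 243 to 309 intensity units in KD cells and 1732 to 1798 in control cells, and Sox7 at 403 to 490.1 in KD cells and 1152 to 1306 in control cells. Log2 values correlated at 0.992 within the KD arrays, 0.993 within the control arrays and 0.974 to 0.978 between the groups. The endoderm markers of the labelled treatment were present but reduced. All 10 extra-embryonic endoderm markers fell, and their summed intensity was 26314 to 29783 in KD cells against 100590.0 to 102532 in control cells. In these bulk samples, fewer cells of a type and less RNA per cell cannot be told apart.

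**Figure D1:**
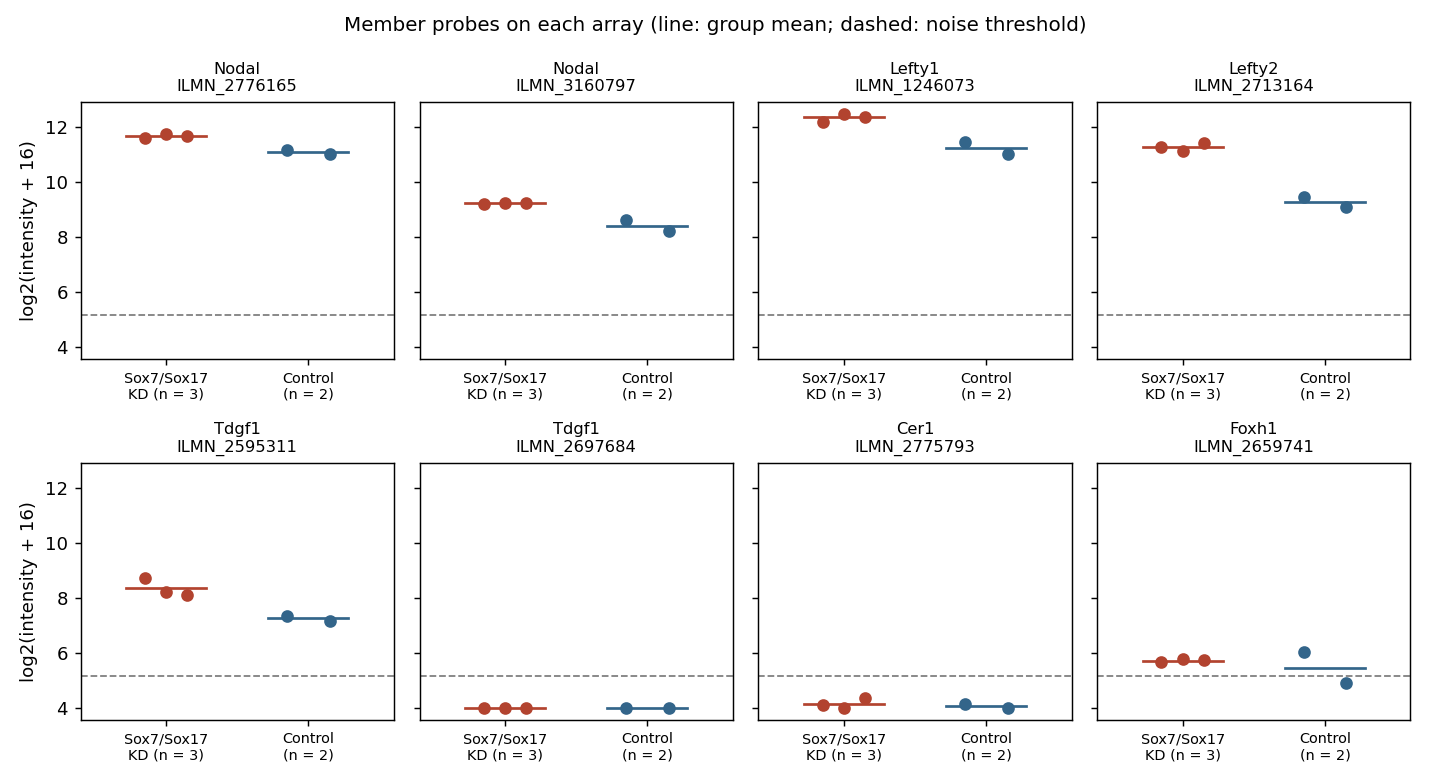
Intensity of each member probe on every array, as log2(intensity + 16), with Sox7/Sox17 KD arrays in red on the left and control arrays in blue on the right. Points are arrays, lines are group means and the dashed line is the noise threshold. The KD points lie above both control points for Nodal, Lefty1, Lefty2 and the brighter Tdgf1 probe, and Cer1 and the other Tdgf1 probe lie below the threshold on all 5 arrays.

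The ligand gene Nodal was measured by a pair of probes, and both were higher in KD cells. The brighter one, ILMN_2776165, read 3161, 3432 and 3293 intensity units in the KD arrays and 2306 and 2056 in the control arrays. Every KD array lay above both control arrays, and the KD arrays were close to each other. The means were 3295 ± 135 in KD cells (SD, n = 3) and 2181 ± 176 in control cells (SD, n = 2), a ratio of 1.51. The difference was 0.59 (SE 0.104, 95% interval 0.34 to 0.85, limma adjusted p = 0.016). The dimmer probe, ILMN_3160797, read 577, 593 and 596 in KD cells and 378 and 285 in control cells. Again the groups were apart, with the control arrays the more scattered. Its difference was 0.81 (SE 0.136, 95% interval 0.48 to 1.14, limma adjusted p = 0.014), and the intervals of both Nodal probes overlap. The call of the brighter probe was lost without control replicate 1, control replicate 2, KD replicate 2 or KD replicate 3 (adjusted p = 0.056, 0.106, 0.051 and 0.052). That of the dimmer probe was lost without control replicate 2, where the difference was 0.62 (adjusted p = 0.067). With every probe tested and no filter on dim probes, neither was called (adjusted p = 0.051 and 0.087).

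The promoter window of Nodal, 250 bases before to 50 after the annotated start (RefSeq, GRCm38.p6, chr10:61417722-61418021, plus strand), is shown with that of Tdgf1, because the ligand and co-receptor genes both rose (chr9:110946109-110946408, minus strand). Capitals mark matches, on either strand, to any of 3 short motifs.
Nodal: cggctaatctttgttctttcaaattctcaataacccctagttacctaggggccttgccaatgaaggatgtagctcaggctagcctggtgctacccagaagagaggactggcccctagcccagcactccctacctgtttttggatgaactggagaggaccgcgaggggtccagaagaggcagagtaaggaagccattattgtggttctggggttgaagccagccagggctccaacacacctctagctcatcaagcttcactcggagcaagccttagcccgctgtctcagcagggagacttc
Tdgf1: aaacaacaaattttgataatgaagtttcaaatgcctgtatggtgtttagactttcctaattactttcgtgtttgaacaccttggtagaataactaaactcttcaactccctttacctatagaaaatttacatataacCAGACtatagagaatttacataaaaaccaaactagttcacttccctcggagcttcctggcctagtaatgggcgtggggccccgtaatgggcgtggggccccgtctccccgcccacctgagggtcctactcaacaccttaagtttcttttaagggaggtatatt
The motifs were TGTGGAT for Foxh1, ACAATG for Sox proteins and CAGAC for Smads. Of 32851 promoter windows of the same length, 3.38% hold the Foxh1 letters, 12.6% the Sox letters and 49.6% the Smad letters. The Nodal window holds none of the 3, and the Tdgf1 window holds the Smad letters at 1 place. Only these exact letters within 300 bases were searched, so sites with other letters or outside the window were not covered. Of the other members, only Cer1 also had a window, with 1 match to the Smad letters and none to the others. No window was available for Lefty1, Lefty2 or Foxh1, so these were not searched.

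Both Lefty genes rose, and Lefty2 had the largest difference of the members. Lefty2, the feedback inhibitor of Nodal that in the embryo is made mainly by nascent and left lateral mesoderm, read 2499.5, 2256 and 2772 intensity units in the KD arrays and 698 and 539 in the control arrays. The lowest KD array lay far above the highest control array. Means were 2509 ± 258 in KD cells (SD, n = 3) and 618 ± 113 in control cells (SD, n = 2), so the KD mean was 4.06 times the control mean. The difference of 2.00 (SE 0.152, 95% interval 1.63 to 2.37, limma adjusted p = 0.0013) placed Lefty2 at rank 20 of 9685 tested genes, counted from the largest rise. Its call was kept without each of the 5 arrays, with differences from 1.82 to 2.18.

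Lefty1, also known as Stra3, for stimulated by retinoic acid, read 4724, 5802 and 5324 in KD cells and 2832 and 2069 in control cells. The KD arrays were all higher than the control arrays, and the control arrays differed clearly from each other. The mean was 5283 ± 540.4 in KD cells (SD, n = 3) and 2450.3 ± 539.8 in control cells (SD, n = 2), a ratio of 2.16. The difference of 1.12 (SE 0.167, 95% interval 0.71 to 1.52, limma adjusted p = 0.010) ranked 142 among the genes. It was 0.89 without control replicate 2, where the call was lost (adjusted p = 0.056), as it was with no filter on dim probes (adjusted p = 0.087). The 95% intervals of Lefty1 and Lefty2 do not overlap, but the difference between their changes was not tested. The paralogs are similar in sequence and probe sequences were not used, so a shared probe signal cannot be told apart.

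In RefSeq (GRCm38.p6) Lefty1 and Lefty2 lie close together on mouse chromosome 1. The genes on the outer sides of the pair gave no call. Sde2, next to Lefty2, read 2054, 2214 and 2290.4 in KD cells and 1820 and 2254 in control cells, a difference of 0.11 (SE 0.127, adjusted p = 0.61). Tmem63a, next to Lefty1, read 230.2, 230.1 and 216 in KD cells and 222 and 248 in control cells, a difference of -0.053 (SE 0.101, adjusted p = 0.76). Both of these neighbours overlapped between the groups. Beside Nodal, Eif4ebp2 fell by 0.49 (adjusted p = 0.033), which no longer passed whichever array was left out (adjusted p from 0.070 to 0.15), and Pald1 differed by 0.47 (adjusted p = 0.11). The neighbours of Tdgf1, Fam240a and Lrrc2, had no listed probe.

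Tdgf1, which encodes the Nodal co-receptor Cripto, rose on 1 of its 2 probes. ILMN_2595311 read 408, 286 and 259 in the KD arrays and 148 and 127 in the control arrays. All KD arrays were above the control arrays, and KD replicate 1 stood above the other KD arrays. The mean was 318 ± 79.5 in KD cells (SD, n = 3) and 138 ± 15.0 in control cells (SD, n = 2), a ratio of 2.31 and a difference of 1.10 (SE 0.201, 95% interval 0.61 to 1.59, limma adjusted p = 0.018). It ranked 149 among the genes. Without KD replicate 1 the difference was 0.91 and still called (adjusted p = 0.021). The call ended when control replicate 1 was omitted (adjusted p = 0.073) and when control replicate 2 was (0.12), and with no filter on dim probes (0.13). The other Tdgf1 probe, ILMN_2697684, stayed between -15.2 and -1.73 on all 5 arrays, below the noise threshold, and was not tested.

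Foxh1, the forkhead partner of Smad2 and Smad3, was dim and gave no call. Its probe read 34.9, 38.5 and 37.8 in KD cells and 50.04 and 13.8 in control cells. The KD arrays agreed closely and lay between the control arrays, of which control replicate 2 was below the noise threshold. The difference was 0.26 (SE 0.315, 95% interval -0.51 to 1.03, limma adjusted p = 0.62), an interval that includes changes in both directions. It was 0.83 without control replicate 1 (adjusted p = 0.037) and -0.32 without control replicate 2 (adjusted p = 0.24), so its direction rests on which control array is used.

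Cer1, the secreted antagonist of the anterior visceral endoderm, did not exceed the noise threshold in either group. Its probe read 1.09, -13.0 and 4.58 in KD cells and 1.79 and -3.39 in control cells, and was not tested. Among the 6 tested member probes, control replicate 2 read lower than control replicate 1 on all 6, against 49.9% of all tested probes. It follows by arithmetic that leaving out control replicate 2 lowered the difference of each of these 6 probes. Both Nodal probes are among them, so the 6 are not separate genes.

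**Figure D2:**
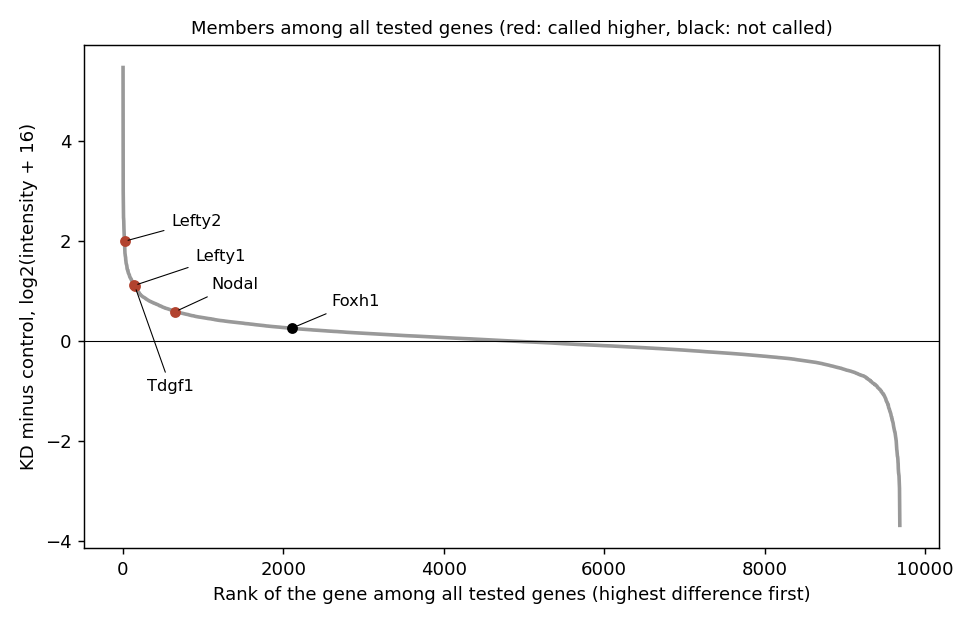
All 9685 tested genes ordered by their KD minus control difference on the log2(intensity + 16) scale (grey line), with 1 probe per gene and the members marked. Lefty2 stands at rank 20, Lefty1 at 142, Tdgf1 at 149, Nodal at 654 and Foxh1, which was not called, at 2102.

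Around these members, some ligands and the signal transducer Smad3 of the Nodal and activin branch rose. Smad2, the other transducer, was not called, and some genes known as Nodal targets fell. Of the 40 further pathway genes, 37 had a probe and 27 were tested, each by its brightest tested probe. Among them 4 rose, 5 fell and 18 were not called, while 8.99% of all 9685 tested genes rose and 7.97% fell. Their median difference was -0.12, against 0.0047 over all tested genes. The counts were 0 higher and 1 lower when control replicate 2 was left out, and 1 in each direction when control replicate 1 was left out.

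**Figure D3:**
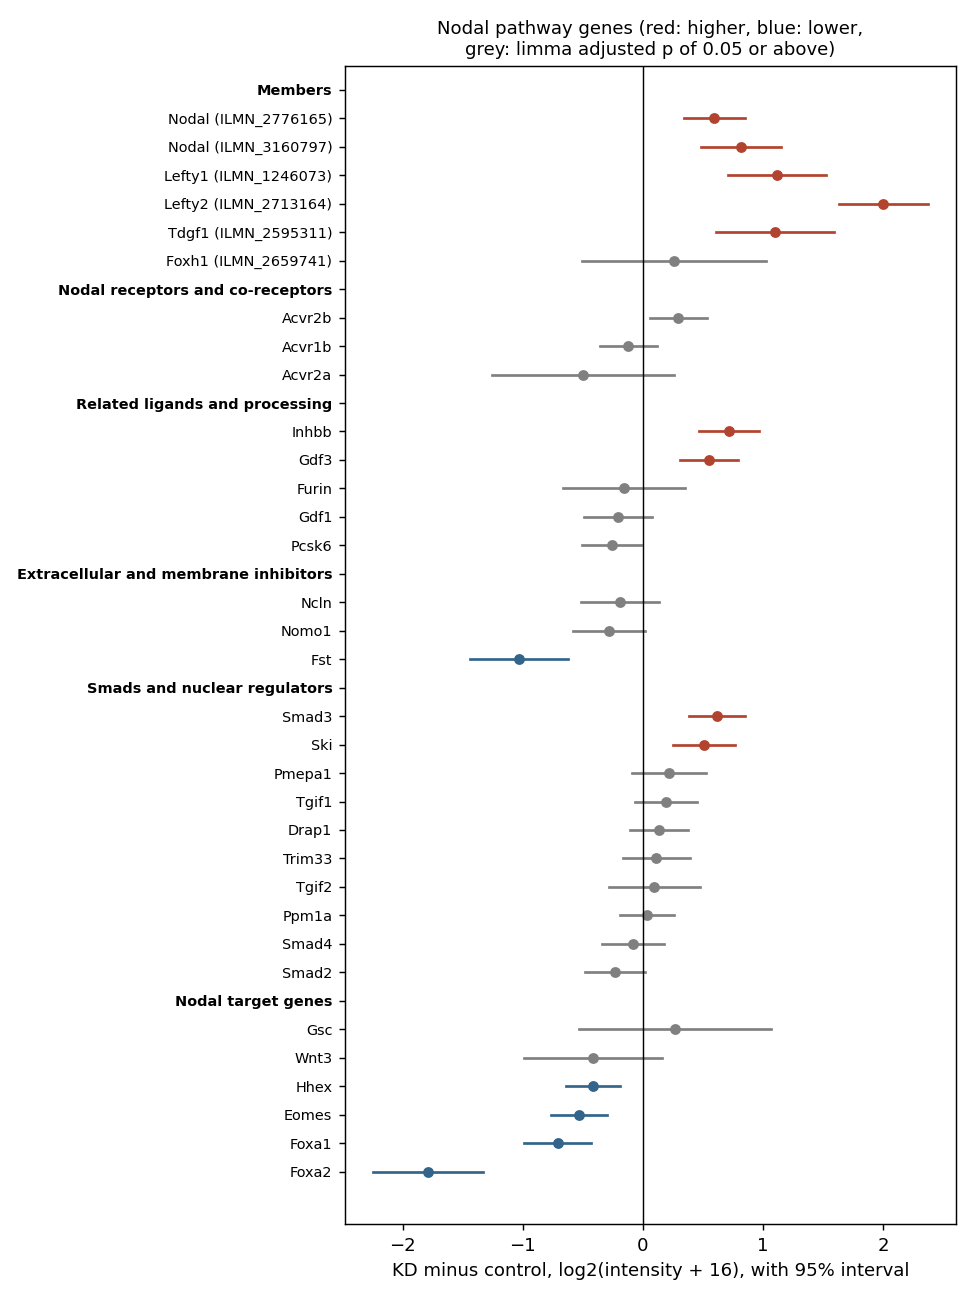
Difference between Sox7/Sox17 KD and control cells for the tested member probes and the tested genes of 5 pathway lists, on the log2(intensity + 16) scale, with 95% intervals from limma. Red marks genes called higher, blue genes called lower and grey genes not called. The intervals of the member probes other than Foxh1 lie right of 0, as do those of Inhbb, Gdf3, Smad3 and Ski, while those of Fst, Hhex, Eomes, Foxa1 and Foxa2 lie left of it. The grey intervals of Acvr2b, right of 0, and Pcsk6, left of it, also exclude 0, since the intervals, unlike the calls, are not adjusted for multiple testing. The Foxh1 interval spans 0.

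Among related ligands and processing enzymes, 2 of 5 tested genes rose and 0 fell (median difference -0.16). Inhbb, which encodes the subunit of activin B, read 2083, 2233 and 2229 in KD cells and 1388 and 1255 in control cells. Its difference was 0.72 (SE 0.102, limma adjusted p = 0.0087), and the groups were apart. Gdf3, a ligand that uses the same receptors and Cripto, read 3356, 3209 and 3002 in KD cells and 2184 and 2150.4 in control cells. It rose by 0.55 (SE 0.0992, adjusted p = 0.017), with both groups tight. Omitting control replicate 2 ended the call of Inhbb (adjusted p = 0.067). For Gdf3 the call ended when control replicate 1 (adjusted p = 0.086), control replicate 2 (0.10) or KD replicate 2 (0.053) was omitted. Of the not called genes, Pcsk6 and Furin, proprotein convertases that cleave the Nodal precursor, differed by -0.26 (adjusted p = 0.14) and -0.16 (adjusted p = 0.65). Gdf1, a ligand that pairs with Nodal, differed by -0.21 (adjusted p = 0.27) on its brighter probe, and its other probe was below the noise threshold on all 5 arrays. Inhba had no listed probe.

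No receptor gene was called by its brightest probe, with 3 of 5 tested. Acvr2b, a type II receptor, averaged 4084 ± 154 in KD cells (SD, n = 3) and 3325 ± 131 in control cells (SD, n = 2), a difference of 0.30 (SE 0.0964, adjusted p = 0.092). Acvr2a, the other type II receptor, differed by -0.50 (adjusted p = 0.32) near the noise threshold. Acvr1b, the type I receptor, differed by -0.12 on its brighter probe (adjusted p = 0.44). Its dimmer probe read 19.0, 16.3 and 24.0 in KD cells and 45.0 and 48.6 in control cells and fell by 0.82 (adjusted p = 0.010), so the Acvr1b probes disagree. Acvr1c and the co-receptor gene Cfc1 were below the noise threshold on all 5 arrays.

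Of the extracellular and membrane inhibitors other than the members, 3 of 5 were tested, 1 fell and 0 rose. Fst, which encodes the activin-binding protein follistatin, read 85.3, 59.9 and 59.0 in KD cells and 168 and 141 in control cells. It fell by 1.03 (SE 0.167, limma adjusted p = 0.013), opposite in direction to both Lefty genes. It missed the threshold when control replicate 1 was omitted (adjusted p = 0.080) and when control replicate 2 was (0.058), and with no filter on dim probes (0.098). Nomo1 and Ncln, whose products form a membrane complex that antagonises Nodal in zebrafish, differed by -0.28 (adjusted p = 0.17) and -0.19 (adjusted p = 0.39). Dand5, a Cer1 relative, and Bambi, a decoy receptor, were below the noise threshold on all 5 arrays.

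Among Smads and their nuclear regulators, 2 of 10 tested genes rose and 0 fell (median difference 0.12). Smad3, a transducer of Nodal and activin signals, read 1571, 1474 and 1534 in KD cells and 957 and 1019.7 in control cells. The groups were well apart, and the difference was 0.62 (SE 0.0958, limma adjusted p = 0.011). Ski, a Smad corepressor, averaged 108 ± 7.09 in KD cells (SD, n = 3) and 71.4 ± 5.88 in control cells (SD, n = 2) and rose by 0.51 (adjusted p = 0.027, and 0.072 with no filter on dim probes). Smad3 missed the threshold when control replicate 1 (adjusted p = 0.072) or control replicate 2 (0.061) was omitted, and Ski missed it whichever array was omitted (adjusted p from 0.051 to 0.15). Smad2, the other transducer, read 586, 606 and 569 in KD cells and 737 and 651 in control cells. Every KD array lay below both control arrays, but the difference of -0.23 was not called (adjusted p = 0.18). Smad4, the common partner Smad, differed by -0.084 (adjusted p = 0.63). Tgif1 and Drap1, nuclear repressors of the pathway, differed by 0.19 (adjusted p = 0.28) and 0.14 (adjusted p = 0.40), and the Smad phosphatase gene Ppm1a by 0.037 (adjusted p = 0.82). Smad7 and Skil, feedback genes that TGF-beta signals induce, were below the noise threshold on all 5 arrays. Pmepa1, another such gene, read 328, 313 and 335 in KD cells and 313 and 246 in control cells. Its difference of 0.22 was not called (adjusted p = 0.29).

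Of the 12 genes listed as Nodal targets besides the members, 6 were tested, 4 fell and 0 rose, with a median of -0.47. Foxa2, a forkhead factor of endoderm and node, read 55.4, 68.4 and 78.3 in KD cells and 323 and 226 in control cells. It fell by 1.79 (SE 0.188, limma adjusted p = 0.0035), a call kept without each array but missed with no filter on dim probes (adjusted p = 0.054), and its other probe was below the noise threshold on all 5. Its relative Foxa1 averaged 145 ± 14.2 in KD cells (SD, n = 3) and 247 ± 9.51 in control cells (SD, n = 2) and fell by 0.71 (adjusted p = 0.012, and 0.060 with no filter on dim probes). Eomes, a T-box factor of the streak and visceral endoderm, read 324, 314 and 319.8 in KD cells and 488 and 448 in control cells and fell by 0.53 (adjusted p = 0.017). Hhex, a homeobox factor of anterior visceral endoderm, fell by 0.42 (adjusted p = 0.033), with 624 ± 14.3 in KD cells (SD, n = 3) and 838 ± 28.6 in control cells (SD, n = 2). All 4 are also expressed in extra-embryonic endoderm, whose marker genes fell. Whether these falls and those of the marker genes are linked was not tested. Omitting control replicate 1 ended the calls of Foxa1 (adjusted p = 0.078) and Eomes (0.10), and so did omitting control replicate 2 (0.071 for Foxa1, 0.073 for Eomes). Eomes also missed the threshold when KD replicate 2 (0.054) or KD replicate 3 (0.055) was omitted, and Hhex whichever array was omitted (adjusted p from 0.069 to 0.15). Gsc and Wnt3 differed by 0.27 (adjusted p = 0.62) and -0.41 (adjusted p = 0.29), Mixl1, Fgf8 and Otx2 were below the noise threshold on all 5 arrays, and T had no listed probe.

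Markers of the cell types that make these members in the embryo were set beside them. Of 9 tested pluripotency markers, 2 rose and 1 fell. Their summed intensity was 49116 to 50175.5 in KD cells and 39959.6 to 43761 in control cells. Of that sum, Esrrb, which was not called, gave 21075 to 22672 in KD cells and 18953 to 20566 in control cells. The brightest Nanog probe gave 12969 to 15128 in KD cells and 9892 to 10421 in control cells. Fgf4, a growth factor of pluripotent cells, rose by 0.75 (adjusted p = 0.0084), Nanog rose by 0.46 (adjusted p = 0.039) on its brightest probe and Tcl1 fell by 0.46 (adjusted p = 0.045). Fgf4 missed the threshold when control replicate 1 (adjusted p = 0.051) or control replicate 2 (0.065) was omitted, and the brightest Nanog probe and Tcl1 whichever array was omitted. The other Nanog probes rose by 0.79 (adjusted p = 0.0080) and 0.61 (adjusted p = 0.025), and of the Sox2 probes the brighter differed by 0.37 (adjusted p = 0.18) and the dimmer rose by 0.45 (adjusted p = 0.034). Esrrb, Pou5f1, Zfp42, Klf4 and Utf1 differed by 0.15, 0.22, 0.12, 0.21 and 0.21 and were not called (adjusted p from 0.22 to 0.44). Among 6 anterior and distal visceral endoderm markers, 4 were tested, 3 fell and 0 rose, led by Foxa2 and Dkk1, a Wnt inhibitor that fell by 1.57 (adjusted p = 0.0048, and 0.062 with no filter on dim probes). Their summed intensity was 762 to 795 in KD cells and 1285 to 1393 in control cells. Hhex, the other gene that fell, alone gave 612 to 640 in KD cells and 817 to 858 in control cells of that sum. Foxa2, Hhex and Eomes stand both among the listed Nodal targets and in the marker lists, so their falls are counted more than once. The part of either cell type in the differences of the members was not tested.

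Of 6 primitive streak and mesoderm markers with a probe, 3 were tested and 1 fell, Eomes, with Mixl1, Mesp1 and Fgf8 below the noise threshold on all 5 arrays. Their summed intensity was 447 to 464 in KD cells and 589 to 619 in control cells. Eomes alone gave 314 to 324 in KD cells and 448 to 488 in control cells of that sum. Of 3 node markers with a probe only Foxa2 was tested, and Shh was below the noise threshold throughout. The summed intensity of the node markers was 58.6 to 111 in KD cells and 230.3 to 338 in control cells. Foxa2 alone gave 55.4 to 78.3 in KD cells and 226 to 323 in control cells of that sum. Of 5 fibroblast markers only Thy1 was tested and its rise of 0.89 (adjusted p = 0.036) passed the threshold, of the 5 sets with 1 array omitted, only in that without control replicate 1, while Col1a2, Col3a1 and Postn were below the threshold on all arrays. The summed intensity of the fibroblast list was 114 to 127 in KD cells and 52.9 to 70.9 in control cells. Thy1 alone gave 90.0 to 108 in KD cells and 33.1 to 61.7 in control cells of that sum.

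The genes whose profiles over the 5 arrays were most like each member were found by the Euclidean distance between centred log2 values, over the 9685 tested genes. These likenesses describe 5 arrays only. The KD minus control difference enters the distance, so genes with a similar difference lie close by construction, and co-regulation was not tested. Closest to Lefty2 were Trh, which encodes thyrotropin-releasing hormone, at a distance of 0.15, the imprinted gene Mest at 0.18 and the homeobox gene Hoxb5 at 0.20. Trh read 1931, 1673 and 1887 in KD cells and 487 and 373 in control cells, high in the KD arrays like Lefty2. Closest to the brighter Nodal probe were Dipk1b at 0.070, the histone demethylase gene Kdm1a at 0.081 and the retinoic acid-responsive germ cell gene Stra8 at 0.089. Closest to the dimmer Nodal probe were Inpp1 at 0.088, Slc4a3 at 0.11 and Grin2c at 0.12, so the Nodal probes shared none of their 3 nearest genes.

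Lefty1 was nearest to Fam184b at 0.11, S1pr5 at 0.22 and Cntfr at 0.22, all of them dim probes. Tdgf1 was nearest to Egln3, which encodes a prolyl hydroxylase of the hypoxia pathway, at 0.22, to the cystine transporter gene Slc7a11 at 0.25 and to Ppp1r14a at 0.25. Egln3 read 2844, 1956 and 2084 in KD cells and 1007 and 960.2 in control cells, with KD replicate 1 highest as for Tdgf1. The nearest to Foxh1 were Nppc, Lrit2 and Calcoco1 at 0.25, 0.28 and 0.30, all of them near the noise threshold, and none of these 3 was called.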

How the data were processed

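Per the labels' protocols, total RNA from Trizol extraction and an RNeasy column step with DNase I was amplified to biotinylated cRNA (Ambion MessageAmp). The authors deposited 1 normalized intensity per probe and array, on a linear scale from -37.5 to 49024. From the values, background had been subtracted and the arrays brought to 1 distribution. The labels do not name the software. A deposited table of unnormalized signals was left out, since its 10 per-sample columns have headings found in no label.

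Values below 0 were set to 0, 16 was added and log2 was taken, so changes of dim probes are understated. The noise threshold was the 90% quantile of the sizes of each array's values below 0. It replaces detection p-values. limma 3.58.1 in R 4.3.3 compared 3 KD with 2 control arrays without covariates (3 residual degrees of freedom), with Benjamini-Hochberg adjustment over 13624 probes. All adjusted p-values are from this fit or from an alternative of it. An exact permutation test over 5 arrays cannot go below 0.1. The fit was tested on simulated data. The small number of arrays limits the precision.

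Symbols came from the platform annotation: 20984 probes had 1, 1 had several and 3628 none. A gene was represented by its brightest tested probe. The text names all members, all called genes of the lists, up to 4 not called genes per list by level, and the 3 nearest profiles. Chromosomal neighbours, second probes, untested genes and, beyond the 4 per list, Smad2, Pmepa1, Sox2 and Utf1 were named after their values were seen. The members and lists were chosen with earlier results of these data known. Alternatives covered the offset, the filter, the floor, the variance model, the replicate block and each array left out. Python 3.11.15, pandas 2.3.3 and matplotlib 3.10.9 made tables and figures.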

Additional observations from a re-analysis of the deposited data

How the results depend on the processing

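The direction of Nodal, Lefty1, Lefty2 and Tdgf1 was the same in all 12 alternatives, and the call of Lefty2 was kept in all of them. With every probe tested and no filter, the brighter Nodal probe (0.59, adjusted p = 0.051), the dimmer one (0.81, adjusted p = 0.087), Lefty1 (1.12, adjusted p = 0.087) and Tdgf1 (1.10, adjusted p = 0.13) were not called. That setting called 454 probes and 367 genes higher and 525 probes and 403 genes lower. In it, 0 inhibitors, 2 target genes, 1 anterior visceral endoderm marker, 0 node markers, 0 pluripotency markers and 2 pathway genes in all were lower, and 1 Smad list gene, 1 pluripotency marker and 0 fibroblast markers were higher. The cause was not tested.

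The replicate numbers shared by KD and control arrays give only 2 pairs, and deviations from the group means of same-numbered arrays correlated at 0.0072 and 0.073, so the numbers were not taken as pairs. With the replicate block, which leaves 1 residual degree of freedom, 534 probes and 416 genes were higher and 556 probes and 412 genes lower. Nodal then differed by 0.59 (adjusted p = 0.074) and 0.80 (adjusted p = 0.052). Under the block 0 related ligands, 0 Smad list genes, 0 fibroblast markers, 1 pluripotency marker and 0 pathway genes in all were higher, and 1 target gene, 0 streak markers, 0 pluripotency markers and 2 pathway genes in all were lower.

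With an intensity trend and a robust prior, 1780 probes and 1364 genes were higher and 1636 probes and 1263 genes lower. There 1 receptor gene was called higher, and 1 related ligand or processing gene and 2 inhibitors were called lower. With an offset of 64, 1634 probes and 1244 genes were higher and 1536 probes and 1167 genes lower, with 1 receptor gene higher. With an offset of 4, 1 pluripotency marker and 0 fibroblast markers were higher and 0 pluripotency markers were lower. Foxh1 could not be tested when a probe had to exceed the threshold on all 5 arrays.

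Leaving out 1 array at a time, which lowers the residual degrees of freedom and, for a control array, assumes that the lone control varies like the KD arrays, gave 291 to 695 probes and 223 to 536 genes higher, and 303 to 765 probes and 220 to 571 genes lower. Differences ranged from 0.51 to 0.68 and from 0.62 to 1.01 for the Nodal probes, from 0.89 to 1.34 for Lefty1, from 1.82 to 2.18 for Lefty2, from 0.91 to 1.22 for Tdgf1 and from -0.32 to 0.83 for Foxh1, which turned negative without control replicate 2. Higher were 0 to 3 pathway genes in all, 0 to 2 related ligands, 0 to 1 Smad list genes, 0 to 1 pluripotency markers and 0 to 1 fibroblast markers. Lower were 1 to 4 pathway genes in all, 0 to 1 inhibitors, 1 to 3 target genes, 2 anterior visceral endoderm markers, 0 pluripotency markers and 0 to 1 streak markers.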
